A study of Mus musculus with 9 samples.

Results

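A set of 32 genes of the red-cell lineage were followed on 9 Affymetrix mouse arrays: transcription factors, receptors, a globin, proteins of the red-cell membrane and its skeleton, and enzymes. They were taken by gene symbol, as all probe sets whose platform annotation gives exactly 1 of those symbols. Of the 32 genes, 30 had such a probe set, with 65 probe sets in all, among 18193 named genes and 45101 probe sets on the array. Ahsp, whose protein keeps free alpha-globin stable, and Trim58, a ubiquitin ligase of late erythroblasts, had none and were not analysed here.

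Each array carried RNA from frozen tissue of 1 sample. The groups were 5 splenic lymphomas of Sca1-MALT1 transgenic mice and 4 spleens of healthy wild-type mice. The transgene's name joins Sca1, the Ly6a gene of blood stem and progenitor cells, to MALT1, a protease and scaffold of antigen receptor signalling. The labels give neither age nor sex nor strain. They number the samples without naming separate animals, so each p-value reflects sample-to-sample spread, part of which may be technical. The tissue was taken whole, so that fewer cells of a type and less RNA per cell cannot be told apart.

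Red blood cells arise from progenitors that answer to erythropoietin, switch on GATA1, TAL1 and KLF1, take up iron through the transferrin receptor, fill with haemoglobin, build a spectrin-based membrane skeleton and lose their nucleus. In the mouse this goes on in bone marrow and, through adult life, in the red pulp of the spleen, which can expand its output under stress. A spleen sample therefore carries erythroid transcripts in health as well.

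In lymphomas 1 and 2 the erythroid genes stood far above every other sample, whereas lymphomas 3, 4 and 5 lay around the wild-type level. All 30 measured genes had their 2 highest values in lymphomas 1 and 2, against 8.84% of all genes. In 26 of the 30 both of these lymphomas were at least 2-fold above every other array, against 1.19% of all genes. By group means all 30 were higher in lymphoma, against 50.3% of all genes, by a median log2 difference of 1.38 (0.0012 over all genes), and 20 were at least 2-fold higher, against 1.36% of all genes. Limma called 0 of the 30 at an adjusted p under 0.05 (background 0.715%), with 2 at an unadjusted p under 0.05 (background 14.7%), and for 0 of 30 did the groups not overlap (background 7.33%).

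**Figure D1:**
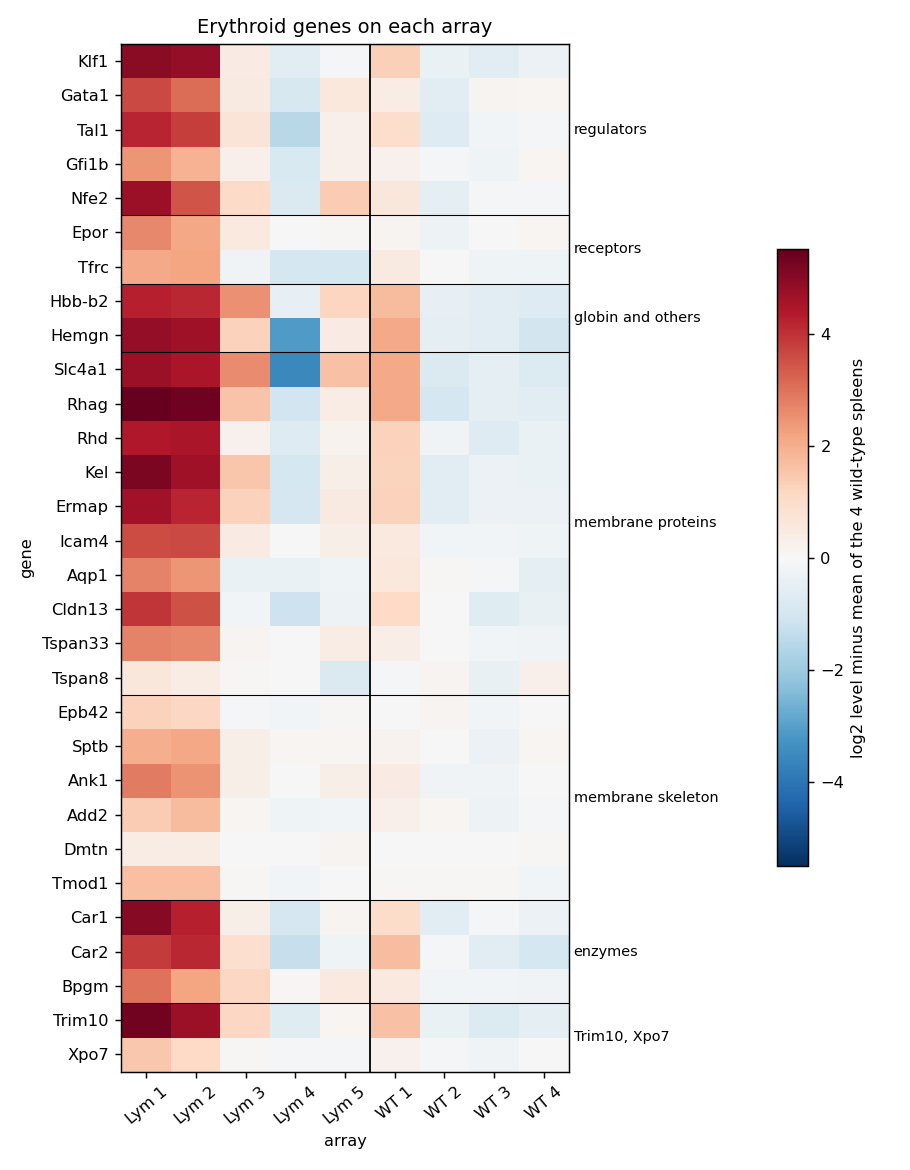
Log2 level of each of the 30 erythroid genes (rows, grouped by role) on each array (columns, lymphomas left, wild-type spleens right), minus the mean of the 4 wild-type spleens. Lymphomas 1 and 2 lie above the wild-type mean for 30 of 30 genes, lymphoma 4 for 5 of 30 and wild-type spleen 1 for 28 of 30.

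Measured from the mean of the wild-type spleens, the median of the 30 genes was 3.61, 3.26, 0.39, -0.62 and 0.17 in lymphomas 1 to 5, against 0.55, -0.17, -0.24 and -0.23 in wild-type spleens 1 to 4, all as log2 differences. The spread among lymphomas thus ran over more than 4 log2 units, and wild-type spleen 1 lay above lymphomas 3, 4 and 5. The SD among lymphomas had a median of 1.88 over the 30 genes and that among wild-type spleens one of 0.45, where over all genes the medians were 0.20 and 0.11. The 2 elevated lymphomas resembled each other closely: lymphoma 1 minus lymphoma 2 had a median of 0.23 and ran from -0.35 (Add2) to 1.27 (Nfe2).

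The transcription factors carried the pattern as clearly as the red-cell products. Klf1, which encodes the activator of adult beta-globin and of many red-cell membrane genes, stood at log2 levels of 12.38, 12.27, 7.89, 6.85 and 7.37 in lymphomas 1 to 5, against 8.74, 7.06, 6.81 and 7.11 in wild-type spleens 1 to 4. No other array came within 3.53 of lymphomas 1 and 2, the widest such gap of the 30 genes by the brightest probe set of each. A dimmer probe set of Epb42 had a gap of 3.86. For Klf1, lymphomas 3, 4 and 5 lay inside the wild-type range. The level averaged 9.35 ± 2.74 in lymphoma (SD, n = 5) and 7.43 ± 0.88 in wild-type spleen (SD, n = 4), a difference of 1.92 ± 1.24 (SE) with a limma adjusted p of 0.515.

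Gata1, whose factor red-cell formation requires, stood at 11.89, 11.33, 8.75, 7.36 and 8.83 in lymphomas 1 to 5, against 8.64, 7.61, 8.41 and 8.36 in wild-type spleens 1 to 4. Lymphomas 3 and 5 were just above the highest wild-type spleen here, and lymphoma 4 was below the lowest. Tal1, the helix-loop-helix partner of GATA1, stood at 11.98, 11.57, 8.46, 6.26 and 8.04 in the lymphomas, against 8.75, 7.05, 7.64 and 7.66 in the wild-type spleens. Lymphoma 4 was again the lowest of the 9 arrays. The differences of the group means were 1.37 ± 0.85 for Gata1 and 1.49 ± 1.09 for Tal1 (SE), with limma adjusted p-values of 0.498 and 0.576.

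Nfe2 and Gfi1b also serve megakaryocytes, the platelet-forming cells that share a progenitor with red cells. Nfe2, a globin-locus factor that platelet formation needs as well, stood at 10.87, 9.60, 7.19, 5.35 and 7.55 in lymphomas 1 to 5, against 6.78, 5.67, 6.08 and 6.10 in wild-type spleens 1 to 4. It exceeded the wild-type range in 4 of 5 lymphomas. The repressor gene Gfi1b ran from 6.03 to 9.29 in lymphoma with a median of 7.15, against 6.62 to 7.11 in wild-type spleen. The differences were 1.96 ± 0.95 for Nfe2 and 0.82 ± 0.59 for Gfi1b (SE), with limma adjusted p-values of 0.383 and 0.566. The mean of megakaryocyte and platelet markers is set beside Nfe2. That mean over 13 genes, measured from the wild-type mean, was 2.41, 0.78, 1.04, -0.70 and 1.30 in lymphomas 1 to 5, against -0.26, -0.40, 0.36 and 0.30 in wild-type spleens 1 to 4. Their part in the Nfe2 result was not tested.

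**Figure D2:**
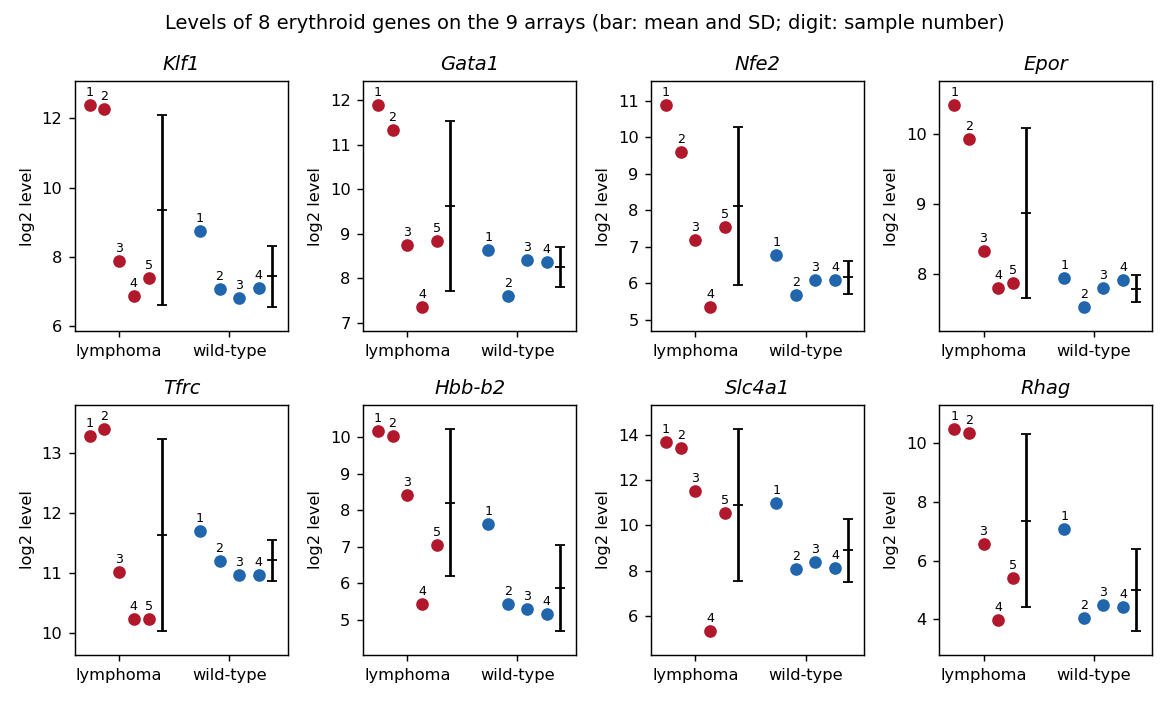
Log2 levels of 8 erythroid genes in the 5 lymphomas (left, red) and the 4 wild-type spleens (right, blue) with the sample number beside each point and the mean and SD as bars; each panel has its own log2 axis. Samples 1 and 2 stand apart in the lymphoma column of every panel, and wild-type spleen 1 is the highest wild-type spleen for all 8 genes.

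The stretch before each gene's start was read for the letters that GATA and KLF factors are known to bind. Of the 32 genes, 22 were in the RefSeq promoter table (build GRCm38.p6, 250 bases before the start to 50 after it), with 24 windows. A GATA motif (AGATAA, its variant TGATAA, the form ending in G, which is AGATAG, or its variant TGATAG, on either strand) was present in 16 of the 24 windows, or 66.7%, against 29.8% of all 32851 windows. A CACC box (CCNCNCCC, either strand, a pattern that also matches GC boxes and runs of G) was present in 16 of 24, or 66.7%, against 49.5%. Both stood in 8 windows (33.3%, against 10.2% of all), and 0 of the 24 had neither, against 31% of all. A match describes the letters and is no evidence of binding in these samples.

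The window of Klf1 (chr8:84901732-84902031, plus strand) holds 1 GATA motif, 80 bases before the start. It is shown because Klf1 had the widest gap between lymphomas 1 and 2 and the rest, by the brightest probe set of each gene. In this and the other windows, printed 5′ to 3′ on the gene's strand, capitals mark GATA motifs and CACC boxes.
Klf1: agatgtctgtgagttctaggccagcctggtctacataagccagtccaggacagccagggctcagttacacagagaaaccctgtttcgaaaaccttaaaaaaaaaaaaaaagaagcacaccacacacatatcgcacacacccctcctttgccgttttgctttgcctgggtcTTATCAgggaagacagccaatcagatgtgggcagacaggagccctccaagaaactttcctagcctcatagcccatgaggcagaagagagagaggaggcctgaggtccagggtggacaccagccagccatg

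Among the receptors, Epor, which encodes the erythropoietin receptor, stood at 10.42, 9.94, 8.33, 7.80 and 7.87 in lymphomas 1 to 5, against 7.94, 7.53, 7.79 and 7.91 in wild-type spleens 1 to 4. Lymphoma 3 was slightly above the wild-type spleens, and lymphomas 4 and 5 were among them. The group means differed by 1.08 ± 0.54 (SE), with a limma adjusted p of 0.394. Tfrc, the transferrin receptor gene that dividing cells of other kinds use too, stood at 13.28, 13.39, 11.01, 10.24 and 10.23 in the lymphomas, against 11.69, 11.20, 10.97 and 10.97 in the wild-type spleens. Its lymphomas 4 and 5 were below all 4 wild-type spleens, and the difference was 0.42 ± 0.70 (SE, limma adjusted p 0.826). Without lymphoma 2 it was -0.020.

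The Epor window (chr9:21963527-21963826, minus strand) has 1 GATA motif 54 bases before the start together with CACC-box matches, and is shown as one of the 8 windows that hold both.
Epor: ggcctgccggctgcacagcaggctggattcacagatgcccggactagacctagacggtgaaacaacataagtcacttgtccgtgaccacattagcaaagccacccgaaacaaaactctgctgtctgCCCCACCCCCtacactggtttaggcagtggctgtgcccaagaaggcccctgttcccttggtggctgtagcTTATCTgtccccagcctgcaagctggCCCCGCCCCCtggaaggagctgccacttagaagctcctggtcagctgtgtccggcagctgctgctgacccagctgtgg

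Hbb-b2 is an adult beta-globin gene. Its brighter probe set stood at 10.16, 10.02, 8.41, 5.41 and 7.03 in lymphomas 1 to 5, against 7.63, 5.41, 5.28 and 5.16 in wild-type spleens 1 to 4. Beyond lymphomas 1 and 2, lymphoma 3 was above all wild-type spleens, and wild-type spleen 1 was 2.21 above the next wild-type spleen. The difference of 2.33 ± 0.98 (SE) had an unadjusted p of 0.0401 and a limma adjusted p of 0.312. The suffix of that probe set marks probes that may match other transcripts, and the beta-globin genes are near copies of each other, so the signal may not be of Hbb-b2 alone. A second Hbb-b2 probe set without that mark was flat, at 6.18 to 6.89 in lymphoma and 6.46 to 6.89 in wild-type spleen (difference -0.15). A further 4 globin probe sets carry several gene symbols and were not used.

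Hemgn encodes a nuclear protein of blood-forming cells and erythroblasts. It stood at 12.96, 12.82, 9.39, 5.02 and 8.60 in lymphomas 1 to 5, against 10.25, 7.63, 7.56 and 7.14 in wild-type spleens 1 to 4. The range among lymphomas, 7.93 log2 units, was exceeded only by that of Slc4a1 among the 30 genes, and lymphoma 4 lay 3.12 below the wild-type mean. The difference was 1.62 ± 1.53 (SE, limma adjusted p 0.670). Its window (chr4:46404134-46404433, minus strand) holds 2 GATA motifs, 13 bases before and 29 bases after the start, and is shown as one of 3 windows with more than 1.
Hemgn: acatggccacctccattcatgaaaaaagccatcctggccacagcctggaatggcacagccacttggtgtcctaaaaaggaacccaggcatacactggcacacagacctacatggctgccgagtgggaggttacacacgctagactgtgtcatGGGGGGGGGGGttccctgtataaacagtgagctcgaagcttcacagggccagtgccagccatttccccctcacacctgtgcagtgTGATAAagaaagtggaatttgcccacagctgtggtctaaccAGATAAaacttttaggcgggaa

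The membrane proteins ranged from the widest spread of the 30 genes, that of Slc4a1, to one of the narrower ones, that of Tspan8. Slc4a1, the band 3 anion exchanger that ties the membrane to its skeleton, stood at 13.66, 13.40, 11.52, 5.36 and 10.53 in lymphomas 1 to 5, against 10.98, 8.10, 8.40 and 8.14 in wild-type spleens 1 to 4. The lymphomas spanned 8.30 log2 units, the most of the 30 genes, with lymphoma 4 the lowest of all arrays. The difference was 1.99 ± 1.55 (SE), and its limma adjusted p was 0.596. A second Slc4a1 probe set gave a similar difference of 2.20, and the third was flat at -0.029.

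Rhag, the glycoprotein that carries the Rhesus antigens to the membrane, had the largest group difference of the 30. It stood at 10.49, 10.36, 6.56, 3.96 and 5.41 in lymphomas 1 to 5, against 7.07, 4.03, 4.48 and 4.42 in wild-type spleens 1 to 4. Wild-type spleen 1 was above lymphomas 3, 4 and 5. The other wild-type spleens were below 6.30, the 40th percentile of mean levels over the array, where RMA compresses differences, so no fold is given. Wild-type spleens 2, 3 and 4 also lay below 6.30 for Nfe2, Hbb-b2, Kel, Icam4, Trim10 and Epb42, so the same limit applies there. The Rhag difference of 2.36 ± 1.38 (SE) had a 95% interval from -0.75 to 5.46 and a limma adjusted p of 0.475. Its window (chr17:40810899-40811198, plus strand) is shown for that rank and holds 1 GATA motif, 31 bases before the start.
Rhag: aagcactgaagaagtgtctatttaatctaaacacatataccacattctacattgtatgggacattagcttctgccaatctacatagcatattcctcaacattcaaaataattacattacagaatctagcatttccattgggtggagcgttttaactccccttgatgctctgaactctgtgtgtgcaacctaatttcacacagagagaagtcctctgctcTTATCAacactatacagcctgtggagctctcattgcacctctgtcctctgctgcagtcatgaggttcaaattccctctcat

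Kel, the blood group metalloprotease, stood at 11.37, 10.84, 7.70, 5.23 and 6.53 in lymphomas 1 to 5, against 7.42, 5.63, 5.86 and 5.84 in wild-type spleens 1 to 4. Lymphoma 3 joined lymphomas 1 and 2 above all wild-type spleens, and lymphoma 4 was below them. The difference was 2.14 ± 1.21 (SE, limma adjusted p 0.456). Its window (chr6:41704276-41704575, minus strand) holds 2 GATA motifs, 56 and 19 bases before the start, and no CACC box, and is shown beside that of Hemgn for this reason.
Kel: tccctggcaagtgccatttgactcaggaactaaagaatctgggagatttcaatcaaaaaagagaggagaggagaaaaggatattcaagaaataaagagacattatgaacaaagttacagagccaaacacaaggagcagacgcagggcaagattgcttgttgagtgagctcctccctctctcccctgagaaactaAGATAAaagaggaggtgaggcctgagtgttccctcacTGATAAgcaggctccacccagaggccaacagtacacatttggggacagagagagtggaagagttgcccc

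Of the other blood group genes, Ermap stood at 13.14, 12.71, 9.78, 7.58 and 8.99 in the lymphomas, against 9.79, 7.87, 8.18 and 8.20 in the wild-type spleens. Rhd, the Rhesus protein that RHAG carries, stood at 11.61, 11.71, 7.43, 6.48 and 7.39 in the lymphomas, against 8.49, 7.01, 6.52 and 6.83 in the wild-type spleens. In both genes lymphomas 3 and 5 lay within the wild-type range and lymphoma 4 below it. Icam4, an adhesion protein of the erythroblast surface, ran from 5.87 to 9.51 in lymphoma with a median of 6.32, against 5.64 to 6.42 in wild-type spleen. Its lymphomas 3, 4 and 5 were within the wild-type range. The differences were 1.93 ± 1.10 for Ermap, 1.71 ± 1.15 for Rhd and 1.60 ± 0.81 for Icam4 (SE), with limma adjusted p-values between 0.407 and 0.534.

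The remaining surface genes include channels and tetraspanins. Aqp1, a water channel that vessel lining also makes, ran from 7.65 to 10.74 in lymphoma with a median of 7.81, against 7.53 to 8.59 in wild-type spleen. Cldn13, a claudin, ran from 6.28 to 11.36 with a median of 7.28, against 6.74 to 8.51, and the tetraspanin gene Tspan33 from 9.10 to 11.79 with a median of 9.50, against 8.88 to 9.44. Lymphomas 1 and 2 supplied the high end each time. The differences were 0.84 ± 0.71, 1.18 ± 1.07 and 1.19 ± 0.61 (SE), with limma adjusted p-values of 0.627, 0.654 and 0.408. Tspan8, a second tetraspanin gene, depended on the probe set and is given with the others of that kind.

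The membrane skeleton is the protein net under the membrane. Ank1, the ankyrin that joins band 3 to spectrin, stood at 11.18, 10.80, 8.65, 8.28 and 8.65 in lymphomas 1 to 5, against 8.75, 8.11, 8.13 and 8.28 in wild-type spleens 1 to 4. Sptb, the beta chain of spectrin, stood at 9.17, 9.30, 7.53, 7.29 and 7.31 in the lymphomas, against 7.40, 7.18, 6.88 and 7.30 in the wild-type spleens. Both had lymphomas 1 and 2 apart and the other 7 arrays close together. Tmod1, which caps the short actin filaments of the skeleton, stood at 8.69, 8.67, 7.09, 6.90 and 7.08 in the lymphomas, against 7.08, 7.09, 7.10 and 6.86 in the wild-type spleens. Its SD among lymphomas was 7.94 times that among wild-type spleens. By the brightest probe set of each gene this was the highest ratio of the 30 (median ratio 3.68, against 1.89 over all genes). The differences were 1.20 ± 0.61, 0.93 ± 0.46 and 0.65 ± 0.40 (SE) for Ank1, Sptb and Tmod1, with limma adjusted p-values of 0.404, 0.384 and 0.498.

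The enzymes followed the same arrays. Car1, a carbonic anhydrase that is abundant in red cells, stood at 12.23, 11.49, 7.53, 6.30 and 7.38 in lymphomas 1 to 5, against 8.23, 6.63, 7.13 and 6.90 in wild-type spleens 1 to 4. Car2, the faster carbonic anhydrase that other tissues also use, stood at 13.67, 13.95, 10.73, 8.56 and 9.58 in the lymphomas, against 11.51, 9.72, 9.18 and 8.83 in the wild-type spleens. Lymphoma 4 was below the wild-type range for both. Bpgm, whose product lowers the oxygen affinity of haemoglobin, stood at 12.38, 11.57, 10.54, 9.47 and 9.91 in the lymphomas, against 9.92, 9.25, 9.22 and 9.18 in the wild-type spleens. All 5 lymphomas were above wild-type spleens 2, 3 and 4, and the overlap came from wild-type spleen 1 alone. With a difference of 1.38 ± 0.54 (SE), Bpgm had the lowest limma p of the 30 genes by their brightest probe sets. It was 0.0289 unadjusted, with a limma adjusted p of 0.277. The differences were 1.76 ± 1.19 for Car1 and 1.49 ± 1.14 for Car2 (SE), with limma adjusted p-values of 0.540 and 0.592.

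Trim10, a tripartite motif gene of terminal erythroid maturation, stood at 11.82, 11.22, 7.61, 5.83 and 6.58 in lymphomas 1 to 5, against 8.12, 6.13, 5.75 and 5.97 in wild-type spleens 1 to 4. Here lymphoma 4 stayed within the wild-type range. Xpo7, an exportin whose erythroid role was described in mouse erythroblasts and which other cells express too, ran from 12.44 to 14.01 in lymphoma with a median of 12.56, against 12.33 to 12.75 in wild-type spleen. The differences were 2.12 ± 1.26 for Trim10 and 0.51 ± 0.33 for Xpo7 (SE), with limma adjusted p-values of 0.481 and 0.526.

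**Figure D3:**
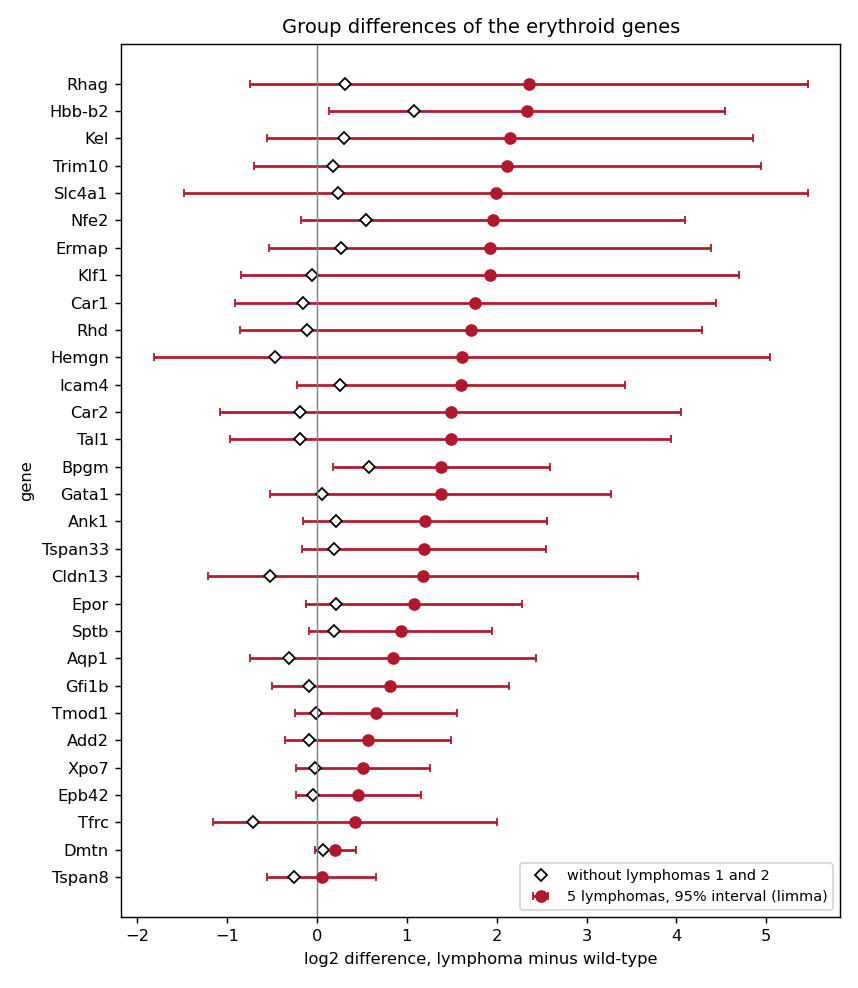
Log2 difference (lymphoma minus wild-type) of each of the 30 genes with its 95% interval from limma (red), and the difference with lymphomas 1 and 2 left out (open diamonds). Lymphomas 1 and 2 were picked as the highest arrays in these same values. With all arrays 30 of 30 differences are above 0 and the intervals of Bpgm and Hbb-b2 leave out 0; without the 2 lymphomas 15 of 30 are above 0.

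The group difference rested on lymphomas 1 and 2. That pair was picked after seeing these values, so leaving it out had to lower the difference. The values without the pair are a description and no test of its part. Without lymphoma 1 the median difference of the 30 genes was 0.81, without lymphoma 2 it was 0.86, and without both it was 0.022, with 15 genes higher and 15 lower. Against these 15 higher genes, 52.5% of all genes were higher. Limma then called 0 of the 30 (background 3.3%), and 1 had an unadjusted p under 0.05 (background 18.9%). The largest differences that remained were 1.08 for Hbb-b2 and -0.72 for Tfrc. With all arrays, a test with unequal variances called 0 of the 30 (background 0%), with 0 at an unadjusted p under 0.05 (background 13.1%). Without lymphoma 4 the median was 1.85, and 18 of 30 genes were at an unadjusted p under 0.05 (background 17.2%), with 0 called (background 0.687%).

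The arrays below the top pair also kept an order. Wild-type spleen 1 was the highest wild-type spleen for 26 of 30 genes, against 19.7% of all genes, the exceptions being Tspan8, Epb42, Dmtn and Tmod1. Lymphoma 4 was the lowest of the 9 arrays for 13 of 30 genes, against 10.5% of all, and below all wild-type spleens for 14, against 27.4%. Lymphoma 3 was above all wild-type spleens for 9 genes (30.0%, against 25.1% of all) and lymphoma 5 for 5 (16.7%, against 31.9%), shares near or under the background. Between the 2 highest arrays, lymphoma 1 led for 24 of 30 genes, or 80%, against 61.6% of the 1608 genes with lymphomas 1 and 2 on top. Lymphoma 2 led for 6, which were Tfrc, Rhd, Icam4, Sptb, Add2 and Car2.

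Lymphoma 3 minus the wild-type mean ran from -0.34 (Aqp1) to 2.61 (Slc4a1), and within each role the values were mixed. Among the regulators it was 0.26 for Gfi1b and 1.04 for Nfe2, and among the membrane proteins -0.14 for Cldn13, 0.22 for Rhd and 1.56 for Rhag. In lymphoma 4 the same measure ran from -3.54 (Slc4a1) to 0.10 (Sptb), with Hemgn at -3.12 and Tal1 at -1.51. The lymphoma 4 levels of Slc4a1, Hemgn and Tal1 were below 6.30, where RMA compresses differences. Lymphomas 3 and 4 are 1 array each, so the values have no replicate check.

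Where a gene had several probe sets, most showed the pattern of lymphomas 1 and 2. Of the 65 probe sets, 56 had their 2 highest values there. Among the 62 that were tested the number was 53, or 85.5%, against 7.69% of all probe sets, and limma called 0 of the 62 (background 0.486%), with 6 at an unadjusted p under 0.05 (background 13.9%). The other 9 were 5 of Xpo7 and 1 each of Ank1, Hbb-b2, Slc4a1 and Sptb, and 4 of them had a negative difference. The 3 Affymetrix control probe sets for Tfrc were higher in lymphoma by 0.30 to 0.64.

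In 6 genes the brightest probe set, which stands for the gene, was not the one with the widest range, and in 4 of these the contrast was large. For Epb42, the protein 4.2 that binds band 3, the dimmer probe set stood at 9.53, 9.70, 5.02, 3.51 and 3.98 in lymphomas 1 to 5, against 5.67, 3.85, 3.62 and 3.81 in wild-type spleens 1 to 4. The brightest one ran from 5.63 to 7.05 in lymphoma and from 5.61 to 5.93 in wild-type spleen, so that the same gene gave a difference of 2.11 or of 0.46. For Tspan8 the wider probe set stood at 9.95, 9.64, 6.44, 4.56 and 4.97 in the lymphomas, against 6.78, 4.94, 4.55 and 4.52 in the wild-type spleens, a difference of 1.92, and the brightest gave 0.051.

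Dmtn, the actin-bundling protein dematin, and Add2, the beta chain of adducin that caps actin at the spectrin junctions, behaved likewise. The wider Dmtn probe set stood at 9.18, 8.95, 6.61, 5.95 and 6.55 in the lymphomas, against 6.73, 6.18, 5.95 and 6.09 in the wild-type spleens. The wider Add2 probe set stood at 8.26, 7.53, 4.56, 4.18 and 4.56 in the lymphomas, against 4.90, 4.32, 4.19 and 4.31 in the wild-type spleens. On these the differences were 1.21 for Dmtn and 1.39 for Add2, against 0.20 and 0.57 on the brightest probe sets. The wider probe sets were picked by their range, so these values are a description, and limma called none of the 6. Those of Epb42, Tspan8, Dmtn and Add2 were below 6.30 in wild-type spleens 2, 3 and 4, where RMA compresses differences.

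**Figure D4:**
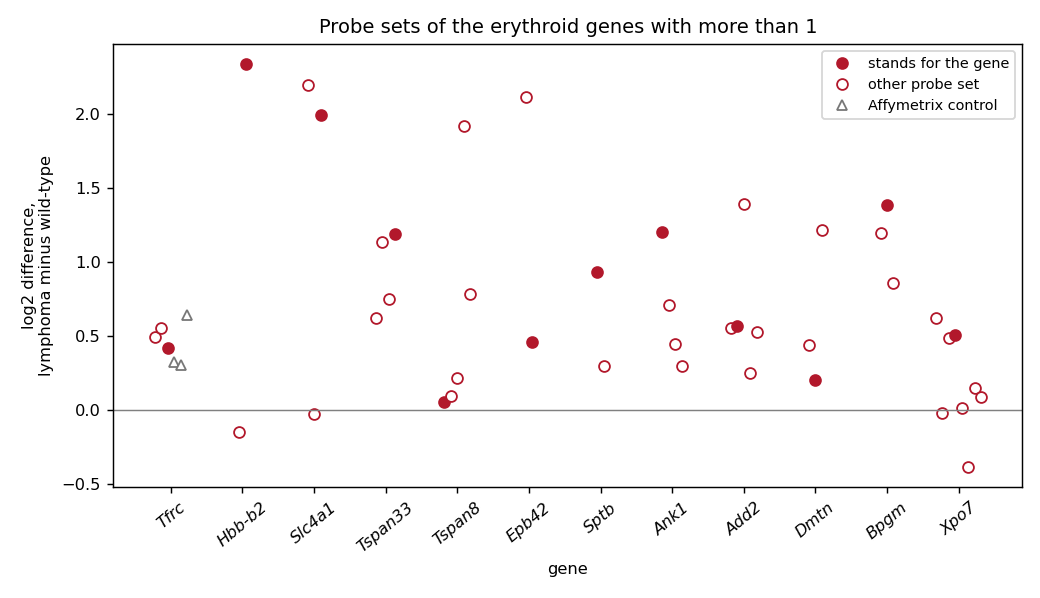
Log2 difference (lymphoma minus wild-type) of every probe set of the 12 erythroid genes that have more than 1; filled circles stand for the gene, open circles are its other probe sets and triangles the Affymetrix controls. The filled circle lies low among its gene's probe sets for Epb42, Tspan8 and Dmtn, and 4 of all 65 probe sets lie below 0.

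The other genes of the pathway were read for the same order of arrays. Over all genes, limma called 0.715%, 14.7% had an unadjusted limma p under 0.05, and 8.84% had lymphomas 1 and 2 highest. Those shares are the background for the list counts here. Of 12 haem synthesis genes measured, limma called 0, with 1 at an unadjusted p under 0.05 (median difference 0.65), and 11 had lymphomas 1 and 2 as their 2 highest arrays. Alas2, the first enzyme of haem synthesis in erythroid cells, stood at 13.00, 12.67, 9.78, 7.05 and 8.54 in lymphomas 1 to 5, against 9.55, 7.92, 7.53 and 7.33 in wild-type spleens 1 to 4. Its limma adjusted p was 0.452, and that of Fech, which inserts the iron (difference 1.30), was 0.377. Among 21 other genes of red-cell structure and metabolism 0 were called and 14 had that order (median difference 0.39), with Tmcc2 at 1.77 and Fn3k at 1.39. Of 26 other erythroid regulators 1 was called, Cited2 at 0.52 (limma adjusted p 0.0394). Their median difference was 0.17, with 15 of 26 higher in lymphoma, and 10 had that order. Cited2 did not, being highest in lymphoma 3. The Cited2 call was lost in 12 of 21 other settings, where its adjusted p ran from 0.0257 to 0.218 over all 21, with 0.218 under the replicate block. The 5 other globin genes with a probe set of their own, with Hba-a1 at 0.025, Hba-a2 at -0.15 and Hbb-bh1 at -0.17, had a median difference of -0.0034, with 0 called and 1 in that order. These probe sets were dim, with Hba-a1 at 4.41 to 4.89 in lymphoma and 4.56 to 4.70 in wild-type spleen, so their values do not bear on globin expression. Hbb-b1 had no probe set named by it alone and was not analysed here.

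Markers of other cells and of division were measured from the wild-type mean in the same way. The same backgrounds apply, with 0.715% of all genes called by limma and 8.84% with lymphomas 1 and 2 highest. The mean over 12 cell cycle genes was 1.64, 1.56, -0.073, -1.26 and 0.019 in lymphomas 1 to 5, against 0.29, -0.26, 0.042 and -0.072 in wild-type spleens 1 to 4, and 12 of 12 had lymphomas 1 and 2 highest (Mki67 at a difference of 0.54, Ccnb2 at 0.54, 0 called). The T-cell mean over 8 genes was -1.38, -1.33, 0.090, -0.32 and -0.18 in lymphomas 1 to 5, against -0.072 to 0.11 in wild-type spleens (0 called, Cd8b1 at a difference of -1.69, Cd8a at a limma adjusted p of 0.233). B-cell markers averaged -1.40, -0.53, -0.30, -0.37 and -0.54 in the lymphomas (0 of 9 called, Fcer2a at -1.77 and Cr2 at -1.25), with mean log2 levels of 10.99 to 12.09 in lymphoma and 12.34 to 12.46 in wild-type spleen. Neutrophil and precursor genes averaged 5.82, 2.27, 1.44, 0.073 and 2.38 in the lymphomas, against -0.25 to 0.28 in wild-type spleens (0 of 11 called, S100a9 at 3.41 and Lcn2 at 3.15). The part of these cells in the erythroid result was not tested.

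Markers listed for macrophages of the red pulp and of erythroblast islands, which nurse erythroblasts and recycle old red cells, had a different order. The list also holds genes of macrophages in general, the C1q chains among them, so it does not mark red pulp macrophages alone. Of 14 markers 12 were higher in lymphoma by mean, and limma called 8 of them higher, against 0.407% of all genes. Among the called were C1qb (2.40), C1qc (2.34), C1qa (1.93) and Hmox1 (1.63), with limma adjusted p-values of 0.00463 to 0.0361. Of the 14 markers, 0 had lymphomas 1 and 2 as their 2 highest arrays, against 8.84% of all genes. Their mean was 1.44, 0.84, 0.79, 1.18 and 1.14 in lymphomas 1 to 5, against -0.15 to 0.092 in wild-type spleens, so lymphoma 4, the lowest in erythroid genes, was not low in them. Megakaryocyte markers had 1 of 13 called (Clec1b at 1.67, limma adjusted p 0.0402), stem and progenitor markers 1 of 10 (Procr at -0.55, limma adjusted p 0.0264) and mast cell markers 0 of 6 (Hdc at 0.46, Mcpt8 at 0.45). The count of 8 macrophage genes ran from 0 (unequal variances) to 9 over the other settings, with 3 under the replicate block, 2 with the 18S level and 2 without wild-type spleen 2. The limma calls of Hmox1, Clec1b and Procr were lost under the replicate block (adjusted p 0.172, 0.172 and 0.214), and over all other settings their adjusted p ran up to 0.211, 0.190 and 0.214. C1qb lost its call with the 18S level (adjusted p 0.0677) and at most reached 0.0770. The order of lymphomas 1 and 2 at the top held for 3 of 13 megakaryocyte, 0 of 10 stem and progenitor and 2 of 6 mast cell genes.

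**Figure D5:**
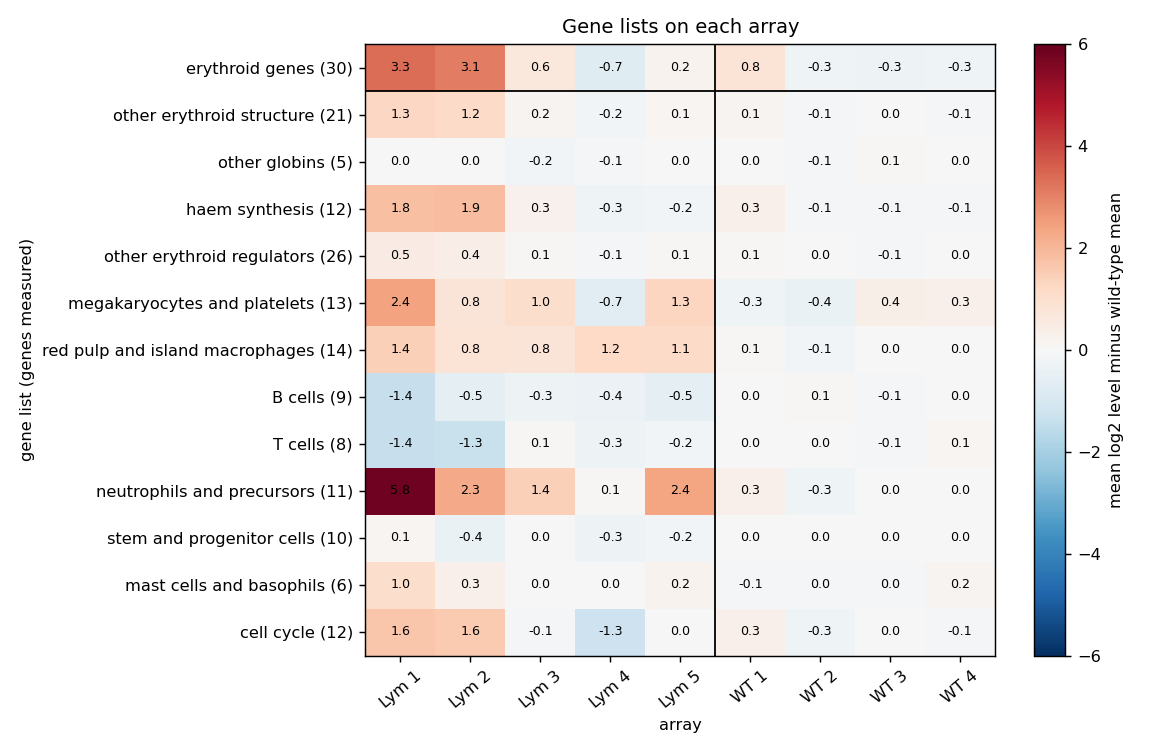
Mean log2 level of each gene list (rows, number of measured genes in brackets) on each array, minus the mean of the 4 wild-type spleens, with the value in each cell; lymphomas left, wild-type spleens right. The erythroid genes average 3.3 and 3.1 in lymphomas 1 and 2 and -0.7 in lymphoma 4, and the cell cycle and haem synthesis lists have their 2 highest values on the same arrays.

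Signs of RNA quality were set beside these values. The 3′ minus 5′ difference of the Gapdh control was 2.80 in lymphoma 1 and 1.92 to 2.20 in the other lymphomas, against 2.18 to 2.42 in wild-type spleens. The mean of the 18S ribosomal RNA controls was 12.68, 13.37, 12.18, 12.63 and 12.86 in lymphomas 1 to 5, against 12.15 to 12.37 in wild-type spleens. With the 18S level as a covariate the median difference of the 30 genes was 0.073, with 20 higher and 10 lower (50% of all genes were higher). Limma called 0 of the 30 in that fit (background 0.077%), with 0 at an unadjusted p under 0.05 (background 9.12%). The 18S level was above all wild-type spleens in 4 of 5 lymphomas. It thus went largely with the group, and the fit cannot tell the 18S level and the group apart. With the Gapdh difference as a covariate instead, the median was 1.64 and 30 of 30 were higher (49.7% of all genes were). Limma called 0 of the 30 in that fit (background 2.52%), with 21 at an unadjusted p under 0.05 (background 20.6%). The Gapdh difference was highest in lymphoma 1, which was also the highest array for 24 of the 30 genes. This fit cannot tell the Gapdh difference and the erythroid level of that array apart.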

How the data were processed

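Total RNA from frozen spleen tissue was labelled with biotin and hybridised to 1-colour Affymetrix arrays, 1 per sample, per the labels' protocols. The deposited values are on a log2 scale, and the submitters' processing notes name RMA, with no version. RMA corrects background, normalizes between arrays and compresses differences near background. Array medians lay between 6.88 and 6.97, and the values were used as deposited.

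Names came from the platform annotation (34958 probe sets with 1 symbol, 932 with several, 9211 with none); 64 Affymetrix controls were not tested. Each of 18193 genes was represented by its brightest probe set by mean over 9 arrays, with no filter on dim probe sets; 29 of the 30 measured erythroid genes would pass one at the 40th percentile, and Epb42 would not. Lymphoma minus wild-type was fitted with limma 3.58.1 in R 4.3.3 (lmFit, eBayes, two-sided, Benjamini-Hochberg over all genes, adjusted p under 0.05). The fit was tested on simulated data. The number of arrays limits the precision. The members and lists were chosen with earlier results of these data known. All 32 genes are named; of each other list, up to 4 called genes are named, otherwise 2 chosen by size of difference, besides Hba-a1, Hbb-b1 and Alas2 in any case. The lists were other red-cell structure, other globins, haem synthesis, other erythroid regulators, megakaryocytes, red pulp macrophages, B cells, T cells, neutrophils, stem and progenitor cells, mast cells and cell cycle. Of 20 other settings, 9 left out 1 array; leaving out lymphomas 1 and 2 was added after seeing the data. Promoter windows are RefSeq's (GRCm38.p6).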

Additional observations from a re-analysis of the deposited data

Results flagged for a closer look

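Among the 30 erythroid genes, 11 values in the wild-type spleens lay apart from the other 3 by Dixon's criterion on the gap to the nearest sample, and 0 of the lymphoma values did. Over all genes 6.84% of the wild-type groups and 8.07% of the lymphoma groups held such a value. Lymphomas 1 and 2 were both high and close together, so a gap to the nearest sample could hardly flag either. The 0 therefore does not mean that no lymphoma stood apart. Chance gives about 1 in 20 groups where groups are independent, and these genes are not, since they share the same 4 arrays. In 10 of the 11 the high sample was wild-type spleen 1, which makes 10 of the 30 genes, against 0.506% of all genes. It stood at log2 levels of 8.74 for Klf1, 7.63 for Hbb-b2, 10.25 for Hemgn, 10.98 for Slc4a1, 7.07 for Rhag, 7.42 for Kel, 9.79 for Ermap, 6.42 for Icam4, 9.92 for Bpgm and 8.12 for Trim10. The other was wild-type spleen 4, low at 6.86 for Tmod1. Without wild-type spleen 1 the median difference of the 30 genes was 1.55, against 1.38 with it, and limma called 0 of them (0.198% of all genes), with 2 at an unadjusted p under 0.05 (11.2% of all genes).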

How the results depend on the processing

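Under each of the 20 settings and without lymphomas 1 and 2, limma or the unequal-variance test called 0 of the measured erythroid genes, and 0 of their probe sets wherever probe sets were fitted. The count of called genes over the whole array was less stable. It was 130 with all arrays, 0 with the unequal-variance test (where 2384 had an unadjusted p under 0.05 and limma gave 2673), 7 with the replicate number as a block (which leaves lymphoma 5, with no wild-type partner, out of the estimate), 459 with the Gapdh ratio, 14 with the 18S level, 532 with array weights and 601 without lymphomas 1 and 2. With 1 array left out it ran from 10 (without wild-type spleen 2) to 328 (without lymphoma 2). The median erythroid difference of 1.38 was 0.073 with the 18S level and 0.55 with array weights, and ran from 0.81 to 1.85 with 1 array left out.

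The labels number the samples and name no pairing. Deviations of same-numbered samples from their group means correlated at 0.12, -0.20, 0.14 and 0.0041, with 1 of 4 wild-type spleens closest to its own number. These correlations cannot decide whether samples were paired, since the lymphomas differ widely among themselves. The replicate block gave a median erythroid difference of 1.59, with 16 of the 30 genes at an unadjusted p under 0.05, against 11.9% of all genes.

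Some differences changed sign. With the 18S level they were -0.017 for Klf1, -0.58 for Tfrc, -0.31 for Hemgn, -0.22 for Rhd, -0.32 for Aqp1, -0.45 for Cldn13, -0.018 for Tspan8, -0.024 for Epb42, -0.12 for Add2, -0.11 for Car2, -0.24 for Mki67 and -0.45 for Ccnb2. With array weights they were -0.27 for Tfrc, -0.12 for Tspan8, -0.022 for Mki67 and -0.011 for Ccnb2. Without lymphomas 1 and 2 they were -0.060 for Klf1, -0.19 for Tal1, -0.089 for Gfi1b, -0.72 for Tfrc, -0.47 for Hemgn, -0.11 for Rhd, -0.31 for Aqp1, -0.52 for Cldn13, -0.26 for Tspan8, -0.045 for Epb42, -0.092 for Add2, -0.011 for Tmod1, -0.15 for Car1, -0.19 for Car2, -0.022 for Xpo7, -0.48 for Mki67 and -0.48 for Ccnb2. With the _x_at, _s_at and _a_at probe sets left out, Hbb-b2 was at -0.15. With 1 array left out Tspan8 ran from -0.090 to 0.27, Hba-a1 from -0.029 to 0.090 and Tfrc from -0.020 to 0.77. The cause of these changes was not tested.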
